A study of Mus musculus with 117 samples.

Results

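The 10 Toll-like receptor genes Tlr1, Tlr2, Tlr3, Tlr4, Tlr5, Tlr6, Tlr7, Tlr8, Tlr9 and Tlr13 were followed by name in every library of a spinal cord injury (SCI) study in mice, out of 27179 genes with a read count. Toll-like receptors are membrane proteins of innate immunity that recognize molecules of microbes and of damaged tissue and switch on NF-kappaB and interferon genes. At the cell surface, Tlr2 pairs with Tlr1 or Tlr6 to bind lipoproteins, Tlr4 with its partner Ly96 binds lipopolysaccharide and Tlr5 binds flagellin. In endosomes, Tlr3 binds double-stranded RNA, Tlr7 and Tlr8 respond to single-stranded RNA, Tlr9 to DNA with unmethylated CpG and Tlr13 to bacterial ribosomal RNA. In the central nervous system these receptors are best known from microglia and invading myeloid cells, and Tlr3 is also known from astrocytes. The question was therefore which members were carried by the ribosomes of astrocytes and which by other cells, at rest and after injury.

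RiboTag mice carry a ribosomal protein that gains a hemagglutinin tag in cells with Cre, so that an antibody to the tag pulls down the ribosomes of these cells with their mRNA. RNA on the beads gave the astrocyte libraries (RiboTag), and RNA left in the supernatant of the same mouse gave the flow-through libraries (Flow), which stand for the remaining cells of the tissue. In Aldh1l1-CreERT2-RiboTag mice, whose Cre is driven by the Aldh1l1 promoter and switched on by tamoxifen, females were sampled uninjured (n = 4) and 2 d (n = 5), 5, 14, 28, 42 and 70 d (n = 4 each) after a complete crush of the thoracic cord. Males were sampled at 5 and 14 d (n = 4 each), and all had both fractions. In mGfap-Cre-73.12-RiboTag mice, whose Cre is driven by a Gfap promoter from early life on, females were sampled 14 d after SCI (n = 5) and uninjured mice of both sexes at P63 (n = 5), with both fractions. Uninjured mice of the same line gave astrocyte libraries alone at P0 (n = 4), P3 (n = 3), P7 (n = 3), P14 (n = 5), P21 (n = 4) and P35 (n = 4). The time-course mice were young adults, all mice carried the RiboTag allele and no wild-type group was used. Injured tissue was a block around the lesion core, so that non-neural lesion cells were part of the input.

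Total counts on genes were 40710428 to 136008399 per library (median 95831369). Each of 12 astrocyte genes (among them Aldh1l1, Aqp4, Slc1a2 and Gja1) was higher in RiboTag than in Flow libraries on average in every group with both fractions. The label astrocyte was not exclusive in the mGfap line on day 14, where all 6 oligodendrocyte genes, all 4 genes of oligodendrocyte progenitors and all 5 ependymal genes were on the RiboTag side too (mean log2 ratio 1.40, 1.67 and 2.34). The oligodendrocyte genes summed there to 26250 to 39520 CPM (counts per 1000000 counts of the library, after scaling), beside 26860 to 45490 CPM for the astrocyte genes. At P63 too, all 5 ependymal genes and 3 of the 4 progenitor genes were on the RiboTag side (mean log2 ratio 1.80 and 0.91), and 0 of the 6 oligodendrocyte genes. Genes best known from myeloid cells were also read in the Aldh1l1 astrocyte libraries. The paper on these data reports that reactive astrocytes can express some of them, such as Tyrobp and Spi1, though less than other cells. For Tyrobp and Trem2 it also gives single-nucleus RNA and protein staining in astrocytes. Of the members, it reports Tlr1, Tlr4, Tlr6, Tlr7, Tlr8 and Tlr9 as upregulated in astrocytes between 2 and 14 d, with some still elevated later. Which cells the reads of these genes came from was not tested here. The summed level of 14 genes shared by microglia, macrophages and granulocytes (the pan-myeloid list, with Csf1r, Ptprc, Itgam and Spi1) was 77.6 to 152 CPM in uninjured mice and 2566 to 4732 on day 2. It was 19900 to 25290 on day 5, 14730 to 22060 on day 14 and 1934 to 5820 on day 70, and none of the 14 was at 0. In mGfap astrocyte libraries the same sum was 34.6 to 45.0 CPM at P63 and 332.5 to 2511 on day 14, the highest being replicate 4. The average log2 ratio of RiboTag to Flow over the 14 genes was −2.19 in uninjured Aldh1l1 mice, −0.87 on day 2, 1.00 on day 5, 0.24 on day 14, −1.01 on day 28, −0.84 on day 42 and −1.31 on day 70. In mGfap mice it was −3.41 at P63 and −3.89 on day 14. These values stand beside every myeloid-expressed member below. In RNA from bulk tissue, a lower level from fewer cells of a type cannot be told apart from less RNA per cell.

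The members lie on 7 chromosomes of the mouse genome (GRCm38, the build of the counts). Tlr1 (chr5:64924680-64933600) and Tlr6 (chr5:64953092-64970942) are neighbours on the minus strand, as are Tlr8 (chrX:167241123-167264329) and Tlr7 (chrX:167303380-167330574), while Tlr13 (chrX:106143275-106160493) lies on the plus strand of the same chromosome as the latter pair. The others are Tlr2 (chr3:83836272-83841824, minus), Tlr3 (chr8:45395665-45411075, minus), Tlr4 (chr4:66827551-66846581, plus), Tlr5 (chr1:182954752-182976044, plus) and Tlr9 (chr9:106222598-106226876, plus). No member shares exon sequence with an overlapping gene. Tlr1 and Tlr6 share 454 stretches of 50 bases, 13.70% of those of Tlr1 and 16.06% of those of Tlr6, so that reads there could not be assigned to either gene with certainty, and none of the other members shared such a stretch with any member.

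Of the 10 members, 8 had a window in the RefSeq promoter set used here (10 windows of 250 bases before an annotated start, GRCm38.p6). Some of these starts lie inside the gene, and at least 216 bases of the Tlr2 window, the Tlr3 window and the first Tlr1 window were annotated exon. Both strands were searched for the NF-kappaB motif, the PU.1 motif GAGGAAGT of myeloid genes, the interferon-stimulated response element (ISRE, the letters GAAA repeated after any 2 bases) and the AP-1 motif TGANTCA, which are held by 7.25%, 2.44%, 2.98% and 6.75% of 32851 windows of 27025 genes. Tlr2 and Tlr3 matched NF-kappaB in these mostly exonic windows, Tlr1 matched PU.1, Tlr6 matched ISRE and Tlr9 matched AP-1, and Tlr5, Tlr8 and Tlr13 matched none. Shown are 3 windows free of annotated exons, those of Tlr13, the member with the highest log2 fold change on day 5 after SCI, and of Tlr6 and Tlr9, whose matches are in capitals. In Tlr6, 2 overlapping ISRE matches begin 116 and 110 bases before a start that lies inside the gene, and in Tlr9 the AP-1 match begins 58 bases before the start of the gene. The windows are chrX:106143025-106143274 on the plus strand for Tlr13, chr5:64959167-64959416 on the minus strand for Tlr6 and chr9:106222348-106222597 on the plus strand for Tlr9, each written in the direction of transcription.
Tlr13: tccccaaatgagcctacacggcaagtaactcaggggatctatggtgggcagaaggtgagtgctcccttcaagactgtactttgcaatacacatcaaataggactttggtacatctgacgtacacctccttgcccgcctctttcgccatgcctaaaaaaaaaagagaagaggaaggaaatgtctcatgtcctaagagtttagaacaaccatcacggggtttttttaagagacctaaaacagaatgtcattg
Tlr6: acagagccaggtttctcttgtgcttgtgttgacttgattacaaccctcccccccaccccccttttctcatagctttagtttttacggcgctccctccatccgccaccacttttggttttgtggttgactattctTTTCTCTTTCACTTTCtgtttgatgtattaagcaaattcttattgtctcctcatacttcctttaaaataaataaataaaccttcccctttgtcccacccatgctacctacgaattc
Tlr9: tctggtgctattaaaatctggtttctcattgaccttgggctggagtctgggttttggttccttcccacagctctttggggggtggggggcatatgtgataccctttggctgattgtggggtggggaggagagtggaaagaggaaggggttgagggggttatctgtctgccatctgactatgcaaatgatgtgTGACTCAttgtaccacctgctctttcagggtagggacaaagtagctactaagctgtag
A match describes these letters and was not tested as a binding site.

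In uninjured Aldh1l1 mice, Tlr3, Tlr2 and Tlr5 were carried by the astrocyte fraction, and Tlr1, Tlr7 and Tlr13 by the flow-through. Tlr3 stood at 106, 109, 142 and 111 CPM in the 4 astrocyte libraries and at 3.56, 5.08, 4.20 and 4.51 CPM in the 4 Flow libraries, 26.4-fold higher in astrocytes (log2 fold change 4.72 ± 0.14 SE, adjusted p = 9.76e-11). Tlr2 stood at 15.5, 16.4, 15.6 and 18.3 CPM in astrocyte libraries and at 2.33 to 3.11 CPM in Flow (2.58 ± 0.13, adjusted p = 8.75e-09). For both genes every astrocyte library was above every Flow library. Tlr5 was at 1.83 to 3.47 CPM against 0.217 to 0.5264 CPM (2.69 ± 0.34, adjusted p = 2.39e-05).

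Tlr13, Tlr7 and Tlr1 went the other way. Tlr13 was at 0.604, 0.888, 0.477 and 0.474 CPM in uninjured astrocyte libraries and at 1.92 to 2.67 CPM in Flow (−1.87 ± 0.29, adjusted p = 0.000131), and Tlr7 at 0.324, 0.455, 0.207 and 0.0526 CPM against 1.07 to 1.78 CPM (−2.50 ± 0.52, adjusted p = 0.00112). For both, all Flow libraries were above all astrocyte libraries. Tlr1 had at most 0.173 CPM in astrocyte libraries, with 1 library at 0, and 0.588 to 0.806 CPM in Flow (−2.70 ± 0.75, adjusted p = 0.00698, and 0.0153 with the mouse as a block). Tlr4 (1.05 ± 0.36, adjusted p = 0.0215), Tlr6 (1.19, 0.0532) and Tlr9 (−1.51, 0.0619) did not pass, and Tlr8 had too few counts to be tested. So 3 members were higher and 3 lower of 9 tested, where 62.1% of all genes passed in either direction.

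Per kilobase of exon, Tlr3 was the leading member of uninjured astrocytes, with a mean level of 23.02 CPM per kb, followed by Tlr2 at 4.89, Tlr5 at 0.477 and Tlr4 at 0.195. On day 5 after SCI the order of mean levels was Tlr13 at 29.8, Tlr2 at 21.8, Tlr7 at 6.92 and Tlr3 at 6.31 CPM per kb.

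After SCI, 8 members rose in Aldh1l1 astrocyte libraries and were higher than in uninjured mice at each of the 6 times: Tlr1, Tlr2, Tlr4, Tlr6, Tlr7, Tlr8, Tlr9 and Tlr13. Tlr3 fell, and Tlr5 was lower on day 70 only. Of all 18205 genes tested, 30.2% were higher and 29.9% lower on day 2, 28.7% and 28.1% on day 5, and 24.5% and 22.8% on day 14. The shares were 22.8% and 19.1% on day 28, 23.3% and 20% on day 42, and 23.9% and 21.5% on day 70. The median log2 fold change of the 10 members was 3.21, 3.83, 4.06, 3.23, 3.12 and 2.22 at the 6 times, beside medians of −0.04 to 0.05 over all genes. All 6 comparisons share the same 4 uninjured libraries. Over the same times, all 14 pan-myeloid genes were higher as well (median log2 fold change 4.81, 6.89, 6.50, 5.33, 5.29 and 4.59), and between 8 and 11 of the 12 astrocyte genes were lower (median −1.82 on day 2 and −0.71 on day 42). The part of these shifts in the members' changes was not tested.

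**Figure D1:**
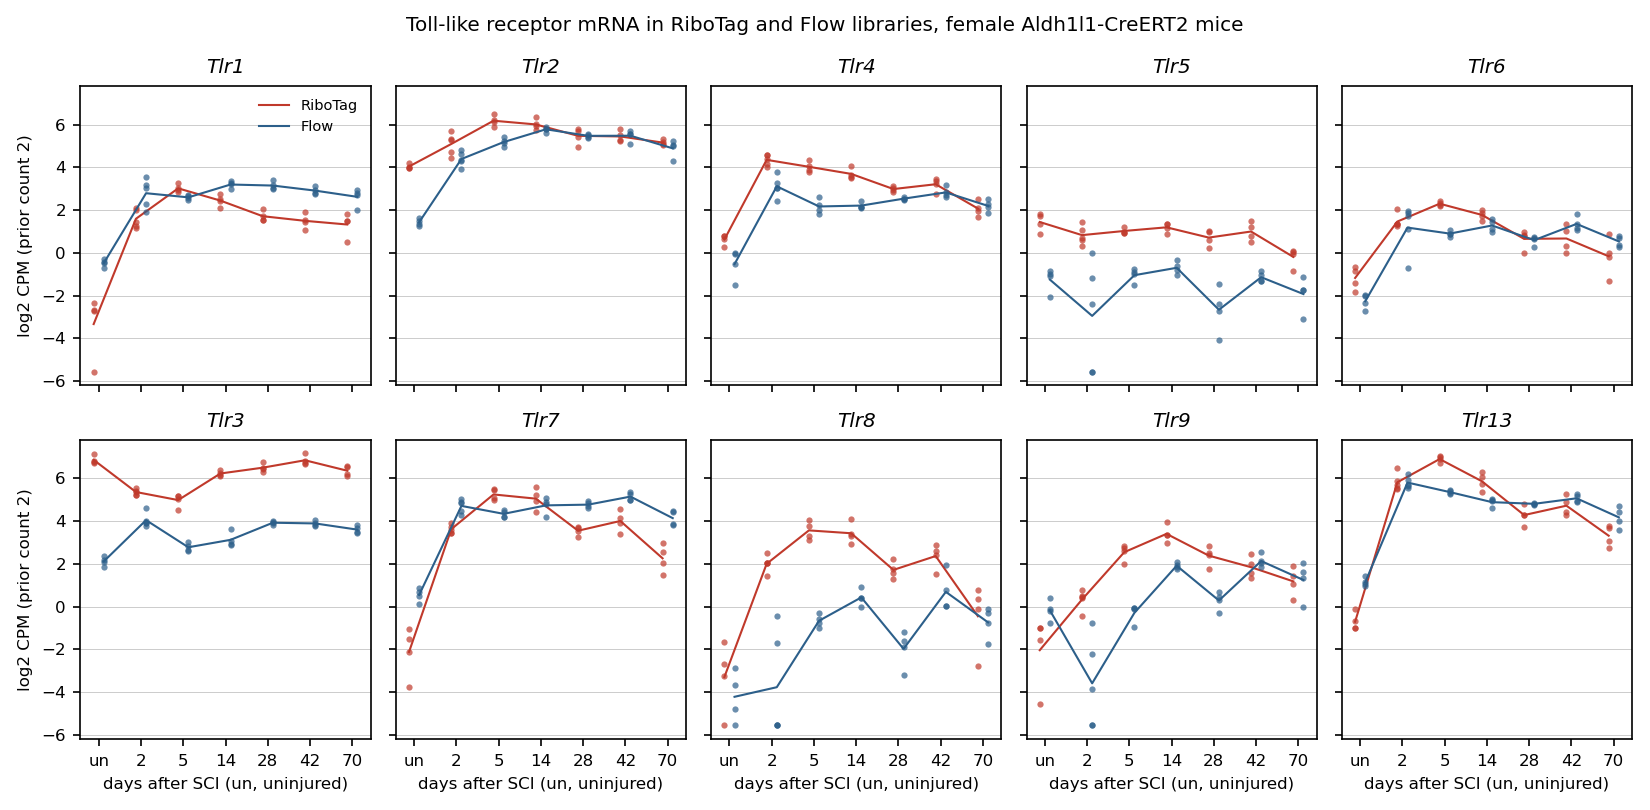
Level of each of the 10 members in every female Aldh1l1 library, as log2 CPM with a prior count of 2 (y axis), uninjured and by days after SCI (x axis). Points are libraries, RiboTag in red and Flow in blue, and lines join the group means of the log2 values. Tlr3 in RiboTag dips at 2 and 5 d and overlaps the uninjured libraries at 28 and 42 d, while Tlr13 and Tlr7 climb from below 1 CPM to above 30 CPM on day 5.

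Tlr3, whose adaptor is Ticam1 (TRIF), was the only member that fell early. Its astrocyte level went from 106 to 142 CPM in uninjured mice to 42.5, 47.1, 40.6, 37.6 and 37.65 CPM on day 2 (−1.49 ± 0.13, adjusted p = 3.13e-11). On day 5 it was at 36.5, 32.9, 22.95 and 35.8 CPM (−1.87 ± 0.14, adjusted p = 1.78e-12). Every library at these times was below 50 CPM and far under the uninjured range. It then stood at 82.7, 76.0, 70.9 and 69.7 CPM on day 14 (−0.67 ± 0.14, adjusted p = 0.000115), a rise of 1.20 ± 0.14 from 5 d (adjusted p = 9.46e-08). On day 28 it was at 107, 77.9, 90.1 and 87.6 CPM (−0.35, adjusted p = 0.0324), and on day 42 at 101, 144, 113 and 105 CPM (0.02 ± 0.14, adjusted p = 0.901), overlapping the uninjured mice. On day 70 it was lower again, at 93.3, 72.5, 68.6 and 96.1 CPM (−0.47 ± 0.14, adjusted p = 0.00414, but 0.0193, 0.0226 and 0.0317 without 70 d replicate 2, 70 d replicate 3 or uninjured replicate 3). Ordered by mean level, the groups ran from uninjured over 42, 28, 70, 14 and 2 d to 5 d, and only 14 d from 2 d and 2 d from 5 d were neighbours without overlap. In the same libraries the summed level of the 12 astrocyte genes went from 54920 to 65200 CPM in uninjured mice to 24020 to 33160 CPM on day 2 and 25300 to 39030 CPM on day 5, and the part of this in the Tlr3 change was not tested.

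Of the surface receptors that rose, Tlr2 had the smallest log2 fold change at each time. It was at 52.7, 26.2, 39.3, 21.4 and 39.7 CPM in astrocyte libraries on day 2 (1.14 ± 0.20, adjusted p = 1.49e-05). It was at 69.8, 88.7, 75.3 and 59.2 CPM on day 5 (4.44-fold, 2.15 ± 0.21, adjusted p = 1.17e-09) and at 34.05, 32.7, 35.96 and 40.5 CPM on day 70 (1.15 ± 0.21, adjusted p = 3.79e-05). Every injured library was above every uninjured one, whereas neighbouring injured times overlapped. Tlr4 was highest on day 2, with 24.2, 20.9, 24.2, 16.2 and 17.7 CPM against 1.196, 1.71, 1.71 and 1.53 CPM in uninjured mice (3.76 ± 0.20, adjusted p = 5.66e-16). It was down to 5.665, 3.204, 3.91 and 4.31 CPM on day 70 (1.50 ± 0.19, adjusted p = 1.11e-07). Tlr1 and Tlr6, the partners of Tlr2, peaked on day 5 with log2 fold changes of 6.21 ± 0.43 and 3.45 ± 0.37, from at most 0.173 CPM and from 0.263 to 0.617 CPM in uninjured mice. On day 70 Tlr1 was still 4.60 ± 0.42 above uninjured mice, and Tlr6 by 1.20 ± 0.35 (adjusted p = 0.00493, but 0.0897 with these 2 groups fitted alone, and 0.0665, 0.0176 and 0.0225 without 70 d replicate 3, uninjured replicate 1 or uninjured replicate 4). Tlr5, the flagellin receptor, was at 1.83 to 3.47 CPM in uninjured mice and passed only on day 70, where it was at 0.942, 0.534, 1.05 and 1.01 CPM (−1.62 ± 0.28, adjusted p = 1.36e-05), below all uninjured libraries.

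Among the endosomal receptors, Tlr13 and Tlr7 had the highest log2 fold changes of the members on day 5. Tlr13 was at 90.6, 44.7, 57.97, 46.96 and 50.7 CPM on day 2 (95.5-fold, 6.58 ± 0.36, adjusted p = 1.58e-14) and at 127, 130, 118 and 104 CPM on day 5 (7.60 ± 0.37, adjusted p = 4.1e-15), from less than 1 CPM in each uninjured library. Afterwards it was at 40.7, 79.4, 53.5 and 65.6 CPM on day 14 and at 19.7, 27.7, 13.3 and 19.4 CPM on day 28. The values were 30.03, 21.1, 38.75 and 19.45 CPM on day 42 and 8.31, 6.65, 13.6 and 12.9 CPM on day 70 (4.10 ± 0.34, adjusted p = 2.17e-10). The 5 d libraries were above those of every other time, and the lowest 70 d library was still above all uninjured ones. Tlr7 was at 43.15, 44.5, 31.7 and 33.7 CPM on day 5 (143-fold over uninjured libraries with 4 to 42 counts, 7.16 ± 0.41, adjusted p = 5.05e-14) and at 4.03, 2.73, 5.91 and 7.85 CPM on day 70 (4.30 ± 0.39, adjusted p = 9.46e-10). Tlr8 went from 0 to 0.292 CPM in uninjured mice to 8.52 to 16.7 CPM on day 5 (6.53 ± 0.61, adjusted p = 5.38e-10), and on day 70 1 library, at 0.122 CPM, was back in the uninjured range (2.94 ± 0.59, adjusted p = 0.000143, and 0.0267 with the groups fitted alone). Tlr9 was the one member with its highest level on day 14, 7.87 to 15.3 CPM against 0.0207 to 0.481 CPM in uninjured mice (5.06 ± 0.48, adjusted p = 5.36e-10).

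From one time to the next, 6 members rose between 2 and 5 d (Tlr1, Tlr2, Tlr7, Tlr8, Tlr9 and Tlr13, by 1.01 to 2.20 on the log2 scale). Of all 18205 genes, 3970 rose and 41.4% passed in either direction. Between 5 and 14 d, Tlr13 fell by 1.03 (adjusted p = 0.00387, not passed without any one of 5 d replicates 1 and 2 and 14 d replicates 1 and 3) while Tlr3 rose, with 25.3% of genes passing. Between 14 and 28 d, 3 members fell, where 816 of 18205 genes fell and 7.4% passed in either direction. These were Tlr13 (−1.53 ± 0.27, adjusted p = 0.000515), Tlr7 (−1.51 ± 0.30, 0.00141, and 0.011 without 14 d replicate 2) and Tlr4 (−0.68 ± 0.18, 0.009, and 0.0111 to 0.0679 in the 7 of 8 leave-one-out fits where it did not pass). Between 28 and 42 d none passed, with 1.67% of genes passing and 1 member at an unadjusted p under 0.05. Between 42 and 70 d, 6 members fell (Tlr3 by 0.50, Tlr4 by 1.14, Tlr5 by 1.22, Tlr7 by 1.71, Tlr8 by 2.45 and Tlr13 by 1.41), where 1357 of 18205 genes fell and 12.6% passed in either direction. None of these 6 passed when the 2 groups were fitted alone (adjusted p = 0.013 to 0.0493).

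In the flow-through libraries, most members rose as well, and Tlr3 with them. Of 10 members, 7 were higher and 1 lower on day 2, where 32.6% and 32.9% of 19207 genes were. Later, 8 were higher on day 5 (27.7% of genes), 9 on day 14 (24.6%), 7 on day 28 (26.4%), 9 on day 42 (25.3%) and 8 on day 70 (21.8%). None was lower after 2 d, where 21.8%, 19.5%, 22.6%, 19.2% and 15.7% of genes were. Tlr2 in Flow rose by 3.01 ± 0.18 on day 2, 4.37 ± 0.20 on day 14 and 3.51 ± 0.19 on day 70, from 2.33 to 3.11 CPM in uninjured mice to 48.8 to 59.8 CPM on day 14. Tlr13 rose by 4.70 ± 0.19 on day 2, its peak, and Tlr7 by 4.62 ± 0.22 on day 42. Tlr3, which fell in astrocytes, rose in Flow at all 6 times, by 1.98 ± 0.17 on day 2 (adjusted p = 3.18e-11), 0.74 ± 0.17 on day 5 (0.000527), 1.05 on day 14, 1.79 at 28 and 42 d and 1.50 on day 70. Its Flow libraries were at 14.75, 16.1, 13.7, 24.2 and 15.1 CPM on day 2 and 5.99, 7.14, 6.31 and 7.98 CPM on day 5, all above the uninjured 3.56 to 5.08 CPM. Tlr5 passed at no time in Flow. Tlr9 was lower on day 2 (−2.36 ± 0.60, adjusted p = 0.000938), where its 5 libraries held 15, 0, 44, 0 and 4 counts, and 0.0917 with these groups fitted alone. In Flow the calls of Tlr9 on day 14 and of Tlr8 on day 70 were each lost in 4 leave-one-out fits.

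The ratio of RiboTag to Flow, fitted per group of mice without pairing, showed 3 patterns among Tlr2, Tlr3, Tlr5, Tlr7 and Tlr13. Tlr3 and Tlr5 stayed on the astrocyte side, and Tlr2 moved from there to values near 0. Tlr7 and Tlr13 moved from the Flow side to the astrocyte side on day 5 and back. Tlr3 was higher in RiboTag in all 11 groups of mice. Its log2 ratio was 4.72 ± 0.14 uninjured, 1.23 ± 0.17 on day 2, 2.10 ± 0.15 on day 5, 2.97 on day 14, 2.55 on day 28, 2.96 on day 42 and 2.72 ± 0.16 on day 70, and in males it was 2.04 and 2.64 at 5 and 14 d. Tlr2 was at 2.58 ± 0.13 uninjured, 0.69 ± 0.24 on day 2 (adjusted p = 0.0228, and 0.00893 with the mouse as a block), and 0.88 ± 0.12 on day 5 (1.43e-05). It was 0.14 ± 0.11 on day 14, 0.00 ± 0.16 on day 28, −0.04 on day 42 and 0.19 ± 0.18 on day 70, and from 14 d on it passed in no group of Aldh1l1 mice. Tlr5 was higher in RiboTag in uninjured mice and at 5, 14, 28 and 42 d (1.81 to 3.23), and missed the threshold on day 2 (2.47, adjusted p = 0.0471) and 70 d (1.65, 0.0178).

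Tlr13 was at −1.87 ± 0.29 in uninjured mice, −0.01 ± 0.20 on day 2, 1.43 ± 0.08 on day 5 (adjusted p = 3.09e-09), 0.91 ± 0.17 on day 14 (0.000431), −0.52 on day 28, −0.30 on day 42 and −0.90 ± 0.27 on day 70 (0.0153, and 0.000116 with the mouse as a block). Tlr7 went from −2.50 ± 0.52 to −1.16 ± 0.16 on day 2, 0.80 ± 0.12 on day 5 (4.7e-05), 0.24 ± 0.23 on day 14, −1.25 on day 28, −1.10 on day 42 and −1.85 ± 0.31 on day 70. The pan-myeloid list passed through the same signs, being above 0 on average only at 5 and 14 d. Tlr4 was on the astrocyte side on day 2 (1.14 ± 0.23), 5 d (1.73 ± 0.17), 14 d (1.40 ± 0.14) and 28 d (0.42 ± 0.12, adjusted p = 0.00673, and 0.0144 with the block), and did not pass at 42 and 70 d. Tlr1 passed on the Flow side at every time but 5 d (0.31 ± 0.12, adjusted p = 0.0354), with −1.32 ± 0.33 on day 2 (0.004, and 0.0146 with the block). Tlr6 passed in Aldh1l1 females on day 5 only (1.29 ± 0.15).

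Tlr8 and Tlr9 lay on the astrocyte side at 5, 14 and 28 d, and on day 2 the ratios of both were above 0 in all 5 mice. Tlr8 passed on day 2 (4.27 ± 1.10, adjusted p = 0.00462, but 0.0103 to 0.0122 without any one of Flow replicate 3 and RiboTag replicates 1, 2, 3 and 5), and Tlr9 did not (2.88 ± 1.04, 0.0276). Their Flow libraries on day 2 held 0 counts in 3 and in 2 of 5. Tlr8 was 4.17 ± 0.24 higher in RiboTag on day 5 (8.52 to 16.7 CPM against 0.470 to 0.796 CPM in Flow), 2.94 ± 0.25 on day 14 and 3.62 ± 0.41 on day 28. Tlr9 was 2.74 ± 0.24 higher on day 5, 1.43 ± 0.18 on day 14 and 2.08 ± 0.27 on day 28. In Aldh1l1 mice the neutrophil list (12 genes) and the list of monocyte-derived macrophages (11 genes) were also on the RiboTag side on average. Their mean log2 ratios were 1.74 to 2.57 and 0.55 to 2.26 over the groups, whereas 10 microglial genes averaged −2.26 to −0.89. Single genes went the other way. Of the macrophage genes, 6 were above 0 in uninjured mice (median 0.04), 7 on day 2 and 8 on day 70. Of the neutrophil genes, 11 were above 0 on day 70, with Csf3r at −2.36. The microglial gene Sall1 was at 1.67 in uninjured mice. In mGfap mice on day 14 the neutrophil, macrophage and microglial lists averaged −4.26, −3.57 and −2.73. Whether Tlr8 and Tlr9 mRNA came from such cells was not tested. These lists were chosen with earlier results of these data known. The paper reports the macrophage-list genes F10 and F13a1 as enriched in astrocytes after SCI, so the side of that list is in part set by its choice.

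Counting calls, 3 members were higher in RiboTag and 2 lower on day 2 (55.7% of genes passing), 9 and 0 on day 5 (64.4%) and 6 and 1 on day 14 (62.4%). There were 5 and 2 on day 28 (64.4%), 2 and 2 on day 42 (46.8%) and 1 and 2 on day 70 (45.7%). Males gave 9 and 0 on day 5 (47.5%) and 6 and 1 on day 14 (53.5%).

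**Figure D2:**
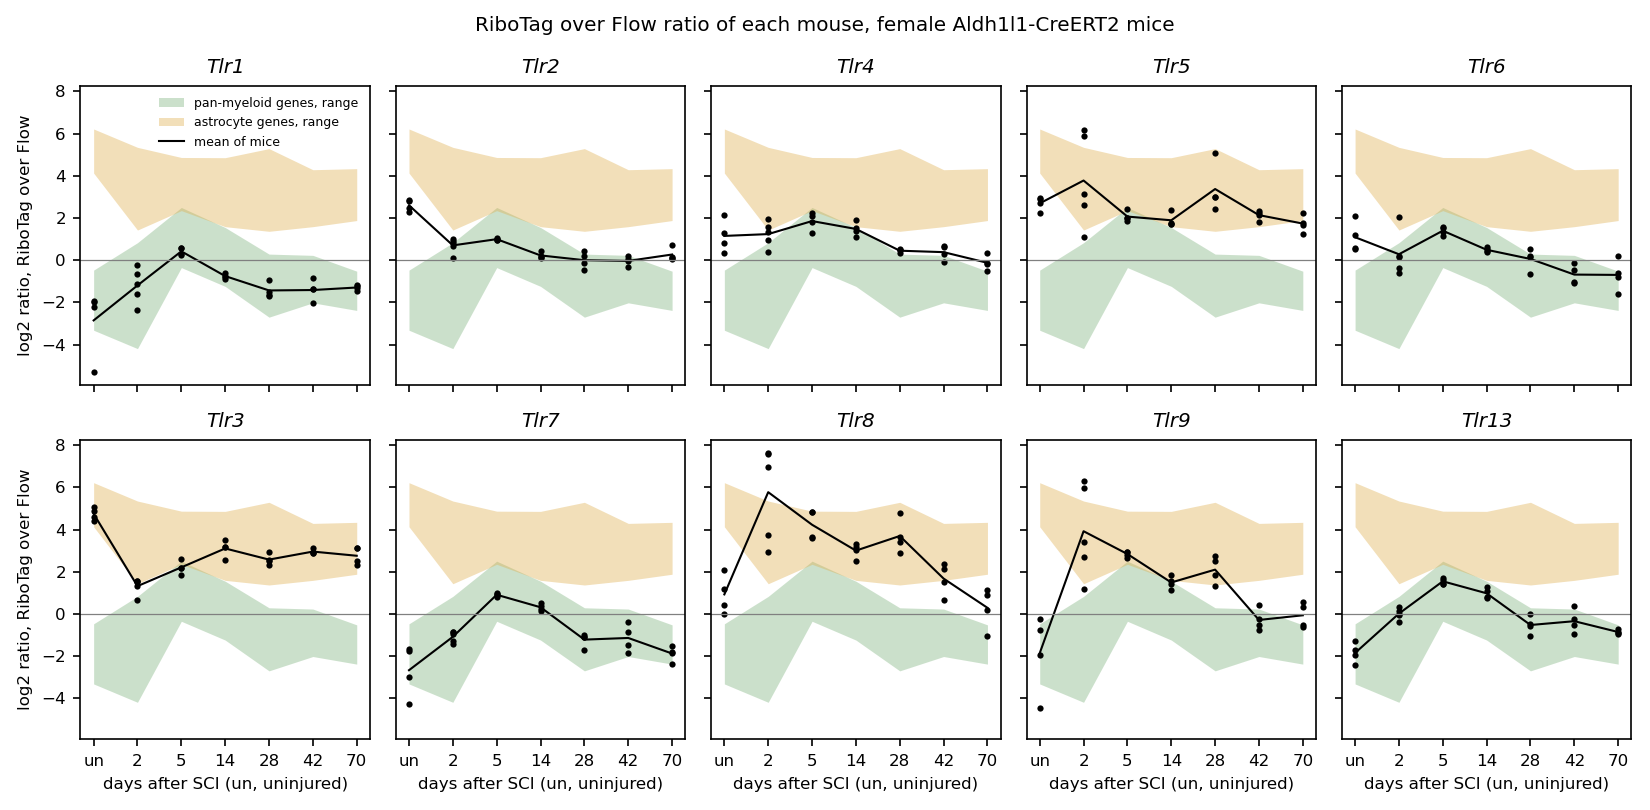
Log2 ratio of RiboTag to Flow of each mouse (points, y axis) for each member in female Aldh1l1 mice, uninjured and by days after SCI (x axis), with a line through the means. The green band spans the lowest to the highest of the 14 pan-myeloid genes and the orange band that of the 12 astrocyte genes. Tlr3 stays above 0 in every mouse, and after injury lies under its uninjured mean of 4.75, while Tlr13 and Tlr7 follow the green band, with means above 0 on day 5 and 14 and below 0 from day 28 on.

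Set beside single marker genes, the mean per-mouse ratio of Tlr3 was above that of all 14 pan-myeloid genes in uninjured mice and at 2, 14, 28, 42 and 70 d, and above 11 of 14 on day 5. It was above 3 of the 12 astrocyte genes in uninjured mice, with a mean log2 ratio of 4.75, and above none at 2 and 5 d (1.32 and 2.21). Tlr2 lay above all 14 in uninjured mice (2.60) and above 9 of 14 at 5 and 14 d (1.00 and 0.23), and above no astrocyte gene. Tlr13 lay above 9 to 11 of the 14 pan-myeloid genes and Tlr7 above 1 to 9 of them in every group of Aldh1l1 females, that is, within the range of the list, and Tlr1 above 2 to 9. Tlr8 lay above all 14 in each of these groups, and Tlr4 and Tlr9 above at least 9 of 14.

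The change of this ratio after injury was tested in one model over both fractions. Relative to uninjured mice, the ratio of Tlr3 was lower at all 6 times (−3.28 ± 0.21 on day 2, −2.40 ± 0.22 on day 5, −1.59 ± 0.21 on day 14, −2.08 on day 28, −1.69 on day 42 and −1.92 ± 0.21 on day 70). So was that of Tlr2 (−1.68 ± 0.26, −1.47 ± 0.28, −2.28, −2.49, −2.55 and −2.30 ± 0.28). Tlr13 (2.07 ± 0.33 on day 2, 3.52 ± 0.35 on day 5, 2.94 ± 0.35 on day 14, 1.45 on day 28 and 1.65 on day 42) and Tlr7 (1.53, 3.50 ± 0.41, 2.89, 1.33 and 1.47) shifted to the astrocyte side at 5 of the 6 times, and on day 70 neither passed (1.06, adjusted p = 0.019, and 0.72, 0.211). Tlr9 shifted likewise at 2 to 28 d (3.11 to 4.54) and Tlr1 at 2 to 14 d (1.59 to 3.23). Tlr6 on day 42 (−1.75 ± 0.51) and Tlr4 on day 70 (−1.12 ± 0.32) shifted to the Flow side. In all, 4 members were higher and 2 lower at 2, 5 and 14 d, 3 and 2 on day 28, 2 and 3 on day 42 and 0 and 3 on day 70. Of 19640 genes, 50.7%, 28.5%, 24.5%, 28.4%, 23.3% and 17.7% passed. The median over all genes was 0.30 on day 2 and 0.19 or less afterwards. With the mouse as a block, Tlr13 also passed on day 70 (1.07, 0.00188), Tlr6 on day 70 (−1.80, 0.00643) and Tlr8 on day 2 (3.83, 0.00303).

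The mGfap line gave a second set of RiboTag libraries. At P63, Tlr3 (4.06 ± 0.11), Tlr2 (3.01 ± 0.18) and Tlr5 (1.78 ± 0.36) were higher in RiboTag than in Flow, the same 3 members as in uninjured Aldh1l1 mice, and Tlr1, Tlr7, Tlr9 and Tlr13 were lower (Tlr7 at −3.41 ± 0.28 and Tlr13 at −3.29 ± 0.52), where 67.8% of genes passed. On day 14 after SCI, Tlr3 was the one member higher in RiboTag (2.47 ± 0.25, adjusted p = 9.29e-06) and 7 were lower: Tlr1 (−3.41), Tlr13 (−3.49 ± 0.54), Tlr7 (−3.36 ± 0.40), Tlr9 (−2.45), Tlr6 (−1.80), Tlr2 (−1.26 ± 0.24, 0.000929) and Tlr4 (−1.13 ± 0.27, 0.00353), with 46.9% of genes passing. Tlr5 was at 1.40 (adjusted p = 0.0217, and 0.00735 with the mouse as a block) and Tlr8 at −1.72 (0.0739). On day 14 in Aldh1l1 females, by contrast, Tlr4, Tlr9 and Tlr13 passed on the RiboTag side, and the difference between the lines in this ratio was not tested.

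From P63 to 14 d after SCI, 7 members rose in mGfap astrocyte libraries (Tlr1, Tlr4, Tlr6, Tlr7, Tlr8, Tlr9 and Tlr13, by 1.25 to 4.76), which had also risen in Aldh1l1 mice. Over this step in the mGfap libraries 4952 of 17848 genes were higher, 44.2% passed in either direction and the all-gene median was 0.17. The P63 mice were of both sexes and the 14 d mice all female. Tlr3 fell, from 118, 131, 130 and 112 CPM in the first 4 replicates, and more in the fifth, to 53.2, 95.1, 50.6, 33.7 and 63.1 CPM (−1.01 ± 0.18, adjusted p = 0.000107). The groups had no overlap. The summed level of the astrocyte genes went from 57010 to 65550 CPM to 26860 to 45490 CPM over the same step, and that of the oligodendrocyte genes from 9964 to 13800 CPM to 26250 to 39520 CPM. The part of these shifts in the Tlr3 change was not tested. Tlr2 was at 16.3 to 18.4 CPM before and at 18.2, 23.5, 17.2, 35.8 and 18.5 CPM after injury (0.48 ± 0.17, adjusted p = 0.02), where 4 of the 5 libraries were below 25 CPM and replicate 4 stood apart. Tlr13 went from 0 to 0.366 CPM to 2.45, 1.38, 2.08, 9.36 and 1.87 CPM (3.85 ± 0.58), and Tlr7 was at 2.09, 1.35, 2.08, 5.98 and 1.68 CPM on day 14 (3.30 ± 0.47). Replicate 4, with the highest values of Tlr2, Tlr7 and Tlr13 and the lowest of Tlr3, was also the library with the highest pan-myeloid sum, and the part of that in these values was not tested. The astrocyte libraries at P63 held 0 counts of Tlr1 in 2 of 5, of Tlr8 in 3 and of Tlr9 in 3, so that their folds rest on next to no counts.

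Between the lines on day 14 after SCI, 8 members were lower in mGfap than in Aldh1l1 astrocyte libraries, with 23.3% of genes passing in either direction. Tlr13 was at 1.38 to 9.36 CPM against 40.7 to 79.4 CPM (−4.05 ± 0.52, adjusted p = 7.48e-06), Tlr7 at 1.35 to 5.98 CPM against 21.5 to 48.25 CPM (−3.63 ± 0.44, 2.57e-06), Tlr2 at 17.2 to 35.8 CPM against 52.9 to 81.7 CPM (−1.46 ± 0.18, 2.55e-06) and Tlr4 at 2.065 to 4.14 CPM against 11.4 to 16.8 CPM (−2.20 ± 0.25, 1.29e-06). None of these 4 overlapped between the lines. Tlr8 (−4.51 ± 0.70), Tlr9 (−3.61 ± 0.67), Tlr6 (−2.00 ± 0.30) and Tlr1 (−2.56 ± 0.68, adjusted p = 0.00654, not passed in 8 of 9 leave-one-out fits) were the others, and none of them overlapped either. Tlr3 (−0.28 ± 0.19, adjusted p = 0.275) and Tlr5 (−1.0 ± 0.31, 0.0172) did not pass, though Tlr5 did not overlap (0.613 to 1.458 CPM against 1.843 to 2.558 CPM). How many of all genes did not overlap was not counted. Over the same comparison all 14 pan-myeloid genes were lower (median −3.56) and none of the 12 astrocyte genes passed (median −0.40), while all 6 oligodendrocyte genes and all 4 genes of oligodendrocyte progenitors were higher (median 3.95 and 3.26).

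In the flow-through on day 14 no member passed between the lines and none had an unadjusted p under 0.05, where 1.48% of 18838 genes passed. The differences of Tlr13 (0.31 ± 0.19), Tlr2 (−0.09 ± 0.20), Tlr3 (0.20 ± 0.17) and Tlr4 (0.30 ± 0.29) were each less than 2 SE from 0. Before injury, no member passed in astrocyte libraries (12.4% of genes passing, 2 members at an unadjusted p under 0.05). In Flow, Tlr3 (0.74 ± 0.18, adjusted p = 0.00698) and Tlr7 (1.0 ± 0.20, 0.00201) were higher in mGfap mice (1076 of 18838 genes higher, 8.71% in either direction), which had males among them. Neither passed with the labelled sex as a covariate (0.114 and 0.0467). From P63 to 14 d, 9 members rose in mGfap Flow libraries (6327 of 18838 genes higher, 66% passing in either direction), among them Tlr2 by 4.66 ± 0.22 and Tlr13 by 3.95 ± 0.20, and Tlr3 by 0.50 ± 0.16 (0.00986). The P63 mice were of both sexes and the 14 d mice all female. With the labelled sex as a covariate, not all of these 9 rises passed.

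The effect of injury on astrocyte libraries differed between the lines for Tlr2 (−1.51 ± 0.25, adjusted p = 0.000242), Tlr4 (−1.84 ± 0.36, 0.00104) and Tlr7 (−3.72 ± 0.69, 0.000678), each rising less in mGfap mice. Of 17848 genes, 882 were lower in this test and 12.7% passed in either direction. With the labelled sex as a covariate, Tlr4 and Tlr7 did not pass (0.0119 and 0.0138). Tlr3 gave −0.37 ± 0.27 (adjusted p = 0.362). Tlr13 gave −2.77 ± 0.83 (0.023), and −3.60 (0.000122) without mGfap 14 d replicate 4. In Flow no member passed (4.58% of genes, 2 members at an unadjusted p under 0.05).

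**Figure D3:**
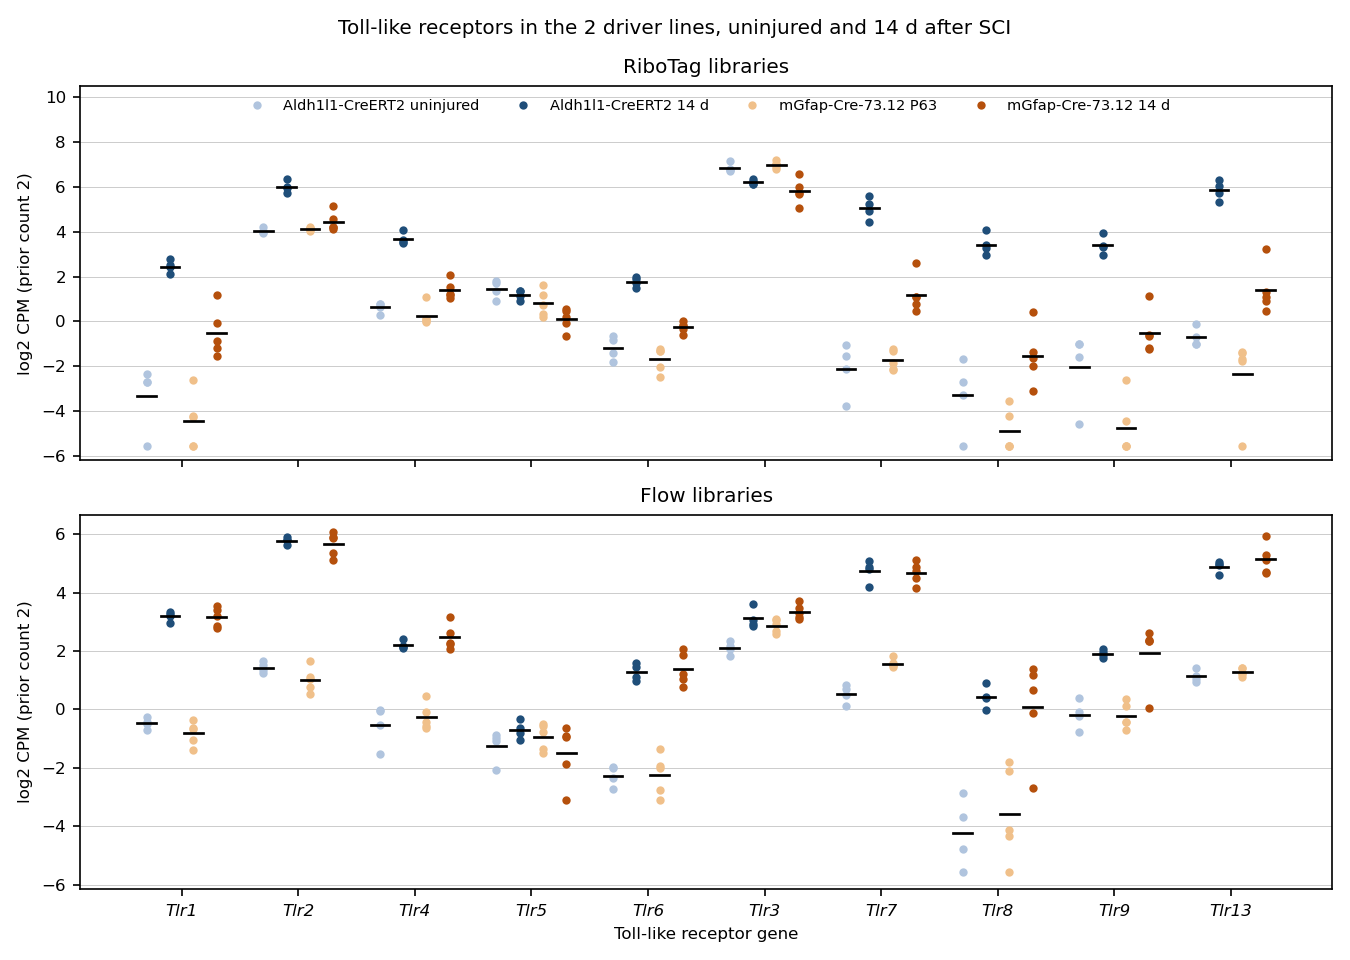
Log2 CPM with a prior count of 2 (y axis) of every member (x axis) in uninjured mice and 14 d after SCI in the Aldh1l1 and mGfap lines, RiboTag above and Flow below, 1 point per library and bars for the group means. In RiboTag the injured mGfap points of every member but Tlr3 lie below the injured Aldh1l1 points, whereas those of Tlr3 overlap, and in Flow the ranges of the injured lines overlap for every member.

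Across postnatal life, Tlr3 and Tlr2 were the members whose level in mGfap astrocyte libraries rose with age. Tlr3 was at 8.04, 12.4, 9.20 and 8.275 CPM at P0, and the group means were 9.49 ± 2.02 (SD, n = 4), 17.4 ± 2.00 (n = 3) at P3, 30.75 ± 1.66 (n = 3) at P7, 48.3 ± 4.44 (n = 5) at P14, 106 ± 18.4 (n = 4) at P21, 127 ± 34.2 (n = 4) at P35 and 127.5 ± 13.3 (n = 5) at P63. Between P0 and P63 it rose by 3.74 ± 0.17 (adjusted p = 3.73e-16). Tlr2 was at 1.755, 0.670, 2.09 and 1.92 CPM at P0 and at 16.3 to 18.4 CPM at P63 (3.44 ± 0.27, adjusted p = 1.9e-11), with means of 1.61, 1.89, 4.61, 7.915, 12.5, 13.1 and 17.5 CPM at the 7 ages. Both genes had no overlap between P0 and P63, and their values at P21, P35 and P63 overlapped, apart from Tlr2 at P21 and P63. Tlr6 also passed, with 0, 0, 0 and 2 counts at P0 and 10, 27, 26, 30 and 14 at P63, too few at P0 for a fold. Of the 9 members tested these 3 passed, where 50.2% of genes did. The summed level of the 12 astrocyte genes went from 7131 to 19620 CPM at P0 to 57010 to 65550 CPM at P63. That of the 6 oligodendrocyte genes was 3767 to 8626 CPM at P0, 23430 to 26380 CPM at P21 and 9964 to 13800 CPM at P63. The part of these shifts in the rises was not tested. The P0 mice were all labelled male and the P63 mice of both sexes.

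**Figure D4:**
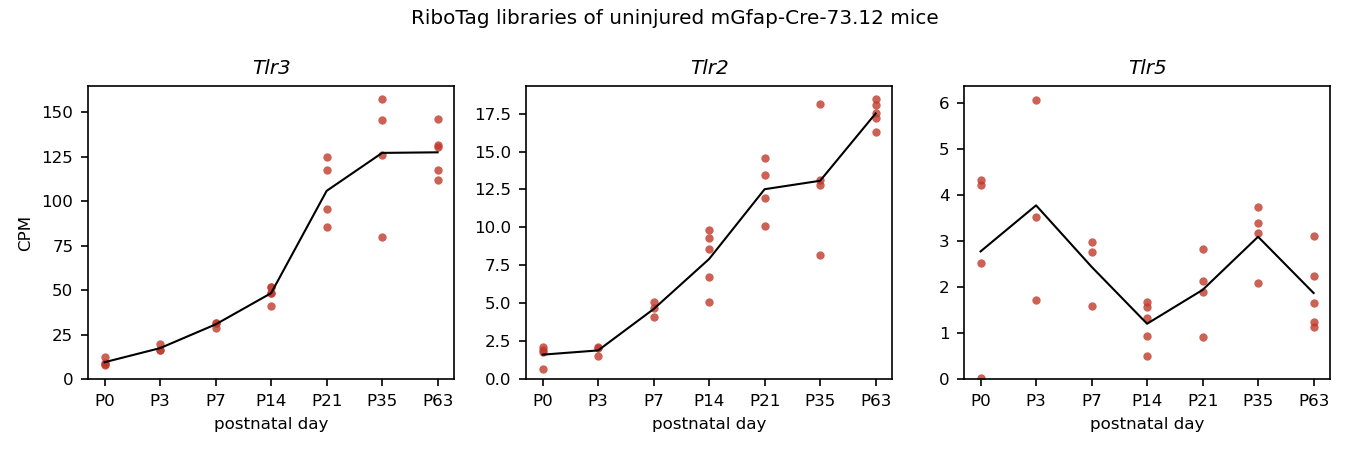
CPM (y axis, linear) of Tlr3, Tlr2 and Tlr5 in RiboTag libraries of uninjured mGfap mice by postnatal age (x axis, ages evenly spaced), 1 point per library and lines through the group means. Tlr3 and Tlr2 climb from P0 to P63, by 3.74 and 3.44 on the log2 scale, and Tlr5, which did not pass the test, varies between 0.0239 and 6.06 CPM.

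Males and females did not pass the test in any member at 5 and 14 d (0 of 10 in RiboTag and 0 of 10 in Flow with edgeR and with DESeq2, where 0.0521% and 0.268% of genes passed with edgeR, and 1 member in RiboTag and 3 in Flow had an unadjusted p under 0.05). The largest difference in RiboTag libraries was that of Tlr5 (−0.59 ± 0.15 in males, adjusted p = 0.683).

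The genes most like each member over the 29 female Aldh1l1 libraries, by Pearson's r of log2 CPM, are given as a description, since these libraries share the time course. In RiboTag libraries Tlr3 ran with Luzp2 (0.976), Bmpr1b (0.975) and the glutamate transporter Slc1a3 (0.970). Tlr13 ran with Cd93 (0.995), Arpc1b (0.993) and the kinase Lyn (0.993), and Tlr7 with Tnfrsf11a (0.991), C3ar1 (0.990) and Pik3cg (0.990). The surface members gave Tmem154 (0.982), Runx3 and Il2rg for Tlr1, Rps6ka1 (0.949), Syngr2 and Ifngr2 for Tlr2, Dhrs9 (0.954), Myh9 and Myo1c for Tlr6, and Vav2 (0.848), Galnt1 and Nsd3 for Tlr5. Tlr8 had Antxr2 (0.977), Ly96 and Cd53, Tlr9 Hpse (0.943), Glipr1 and Clec7a, and Tlr4 Eif1a (0.977), Ptbp3 (0.972) and a gene without a symbol. With a prior count of 0.5, 1 of the 3 genes was kept for Tlr9, 2 for Tlr6, Tlr7 and Tlr8, and all 3 for the other members. Many further genes were close, the 50th having r of 0.974 for Tlr7 and 0.976 for Tlr13. Tlr3 itself correlated with Tlr13 at −0.68, with Tlr6 at −0.67 and with Tlr4 at −0.66 in RiboTag libraries.

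In Flow libraries Tlr3 ran with Sdc2 (0.950), Cpne3 (0.943) and Mef2c (0.939), and its correlation with Tlr13 was 0.71 and with Tlr4 0.81, of the opposite sign to that in RiboTag. Tlr2 had Itgb5 (0.987), the microglial gene Fcrls (0.986) and Arhgap45, Tlr13 had Rab32 (0.990), B430306N03Rik and C3ar1 (0.987), Tlr7 Stra6l (0.990), Hpgds and Fyb, Tlr1 Cd300a (0.981) and Fgr, and Tlr6 Mfsd11 (0.956), Tfec and Casp6. Tlr4 had Mdfic, D730005E14Rik (0.972) and Pros1, Tlr8 Rab43 (0.939), Nlrc3 and Cd302, Tlr9 Lmntd1 (0.974), Cited2 and Slc6a20a, and Tlr5 Pyroxd1 (0.889), Rint1 and a gene without a symbol. With a prior count of 0.5, 2 of the 3 genes were kept for Tlr5, Tlr6, Tlr8 and Tlr9 in Flow.

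Of 58 other genes of the pathway (57 tested in RiboTag), 37 were higher and 6 lower on day 2, 38 and 7 on day 5 and 37 and 5 on day 14. There were 35 and 5 on day 28, 35 and 6 on day 42 and 31 and 7 on day 70. The shares of all genes at these times are those given for the members, 30.2% higher and 29.9% lower on day 2 and 23.9% and 21.5% on day 70. In Flow, 43 were higher and 4 lower of 56 tested on day 2, 40 and 6 on day 5, 38 and 5 on day 14, 34 and 4 on day 28, 39 and 4 on day 42 and 35 and 4 on day 70. Of all genes in Flow, 32.6% were higher and 32.9% lower on day 2, and 21.8% and 15.7% on day 70. In RiboTag libraries the listed co-receptors (Cd14, Ly96, Cd36, Lbp, Cd180 and Ly86) rose together: 5 of 6 on day 2 (not Lbp, 0.22 ± 0.30) and 6 of 6 at each later time. Among them were Cd14 at 6.43 on day 2 and 4.16 on day 70, the scavenger receptor Cd36 at 8.39 ± 0.52 on day 5 and Ly96, the partner of Tlr4, at 2.69 ± 0.25 on day 5. Unc93b1, which carries the endosomal receptors from the endoplasmic reticulum, rose by 5.23 ± 0.34 on day 5, whereas the chaperone Hsp90b1 rose by 0.47 and its cofactor Cnpy3 was at 0.06 (adjusted p = 0.423). Of the adaptors on day 5, Ticam2 (6.57 ± 0.36), Myd88 (1.73 ± 0.10) and Tirap (0.69 ± 0.19) rose, Sarm1 fell by 1.09 and Ticam1 was at 0.04 ± 0.09 (adjusted p = 0.688). In uninjured mice Ticam1 was 2.44 ± 0.11 higher in RiboTag than in Flow (adjusted p = 2e-09), the same side as its receptor Tlr3. Myd88 was 0.93 ± 0.10 higher, while Unc93b1 (−1.39), Cd14 (−2.31) and Ly86 (−3.40) were on the Flow side.

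Among kinases and ligases, 8 of 14 were higher and 5 lower on day 2, led by Ikbke (1.79), Chuk (1.02), Irak4 (0.98) and Irak2 (−0.98). Among transcription factors, 5 of 7 were higher on day 2 and none lower, with Irf5 at 4.88 ± 0.29, Irf8 at 3.77 ± 0.35 and Irf7 at 2.46. Of the inhibitors 5 of 7 were higher on day 2, led by Tnfaip3 (2.45 ± 0.26) and Irak3 (2.33), and of the endogenous ligands Vcan (4.00 ± 0.19), Tnc (3.36 ± 0.11) and S100a8 (1.96) were higher. Of 7 target genes tested, 6 were higher on day 2, with Il6, Tnf, Ptgs2 and Il1b at 9.66 ± 1.89, 7.31 ± 1.06, 6.91 and 6.17, and on day 70 Tnf (5.39 ± 1.08) and Cxcl10 (4.23 ± 0.64) were among those still higher. Of the 2 Toll-like receptors outside the member list, 0 passed on day 2. Tlr12 was higher on day 5 (2.40 ± 0.59), 1 of the 2 was on day 14, and both were at 28, 42 and 70 d. On day 70 Tlr11 was at 3.57 and Tlr12 at 2.89. Between the lines on day 14, 25 of the 56 pathway genes tested were lower and 1 higher in mGfap astrocyte libraries, among them all 6 co-receptors, Unc93b1 (−3.02 ± 0.32), Ticam2 (−3.20), Myd88 (−0.70 ± 0.11) and Ticam1 (−0.37 ± 0.09). In Flow 1 was lower and none higher. Of all genes, 23.3% passed between the lines on day 14 in RiboTag and 1.48% in Flow, in either direction. The myeloid values given for these libraries apply to the pathway genes too.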

How the data were processed

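RNA on tagged ribosomes (RiboTag) and RNA of the supernatant (Flow) were sequenced as poly-A libraries (paired 50-base reads), 70 and 47 libraries. What the authors deposited are raw read counts (whole numbers, not normalized), made with Trimmomatic, HISAT2 on mm10 (GRCm38) and featureCounts in Galaxy with default settings. All 27179 genes entered each fit, and the members, pathway lists and marker lists were chosen with earlier results of these data known. Each library took its group from its title, and 1 Flow library at 5 d with a male label was kept with the females by that title.

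Tests were quasi-likelihood F tests of edgeR 4.0.16 in R 4.3.3 (legacy fit, robust) after TMM scaling and filterByExpr, two-sided, with Benjamini-Hochberg adjustment over all genes tested. A gene passed at an adjusted p under 0.01, log2 fold changes carry the standard error implied by the F statistic, and p-values are adjusted unless stated. One fit held the time course of each fraction, one the 4 groups of the line comparison and one the ages, while RiboTag against Flow was fitted per group of mice, and the change of the ratio was an interaction over both fractions. Levels are CPM with TMM scaling over all 117 libraries (log2 values and per-mouse ratios with a prior count of 2), and levels per kilobase use the union of exons. Replicates are separate mice. Libraries of the same number in a group came from the same mouse by the design text, and over 17836 genes 41 of 47 mice had the best correlation of deviations with their own number, the exceptions being 3 of 5 at 2 d and 3 of 4 at 28 d, where the median was 0. The mouse as a block was therefore an alternative. Others were DESeq2 1.42.0, its size factors, no filter or at least 10 counts, FDR under 0.05, the edgeR 4 fit, groups fitted alone, labelled sex as a covariate and leaving out each library. All 10 members were named, with the 3 genes most correlated with each over 29 libraries (1 such gene is not reported here) and, of the longer pathway lists, up to 4 with the largest change at 2 and 70 d. The fits were tested on simulated data. Sequences are RefSeq windows of GRCm38.p6.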

Additional observations from a re-analysis of the deposited data

Results flagged for a closer look

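Of the sets of 4 or 5 libraries of a group tested for a member's value far from the others on the log2 scale, 20 had one (7.78%), where chance gives about 1 in 20. In RiboTag libraries of uninjured Aldh1l1 mice, replicate 3 had Tlr1 at 0 CPM (others 0.132 to 0.173), Tlr3 at 142 CPM (106 to 111) and Tlr9 at 0.0207 CPM (0.314 to 0.481). After SCI in RiboTag, Tlr6 was at 4.09 CPM in 2 d replicate 1 (others 2.35 to 2.54), Tlr9 at 0.717 CPM in 2 d replicate 5 (1.32 to 1.67), Tlr5 at 1.86 CPM in 5 d male replicate 2 (0.977 to 1.08) and at 0.534 CPM in 70 d replicate 2 (0.942 to 1.05), and Tlr9 at 2.16 CPM in mGfap 14 d replicate 4 (0.409 to 0.630). In Flow, Tlr3 was at 24.2 CPM in 2 d replicate 4 (13.7 to 16.1), Tlr9 at 0.501 CPM in 5 d replicate 3 (0.906 to 0.945), at 0.547 CPM in 5 d male replicate 3 (0.969 to 1.05) and at 1.02 CPM in mGfap 14 d replicate 1 (5.01 to 6.11), and Tlr8 at 0.0782 CPM in 5 d male replicate 3 (0.784 to 0.871). In mGfap RiboTag libraries by age, Tlr2 was at 0.67 CPM in P0 replicate 2 (1.75 to 2.09), Tlr8 at 0.8 CPM in the same library (others 0), Tlr5 at 0.0239 CPM in P0 replicate 3 (2.52 to 4.32), Tlr4 at 0.0727 CPM in P14 replicate 4 (0.293 to 0.435) and at 2.1 CPM in P63 replicate 2 (0.951 to 1.07), Tlr8 at 0.0596 CPM in P21 replicate 2 (others 0) and Tlr13 at 0 CPM in P63 replicate 1 (0.269 to 0.366).

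The effect of injury differed between RiboTag and Flow libraries for 31 of 60 tests of a member at a time, all with edgeR's interaction term at an adjusted p under 0.01, on the log2 scale relative to uninjured mice. At 2 d the differences were 1.59 for Tlr1, −1.68 for Tlr2, −3.28 for Tlr3, 1.53 for Tlr7, 4.54 for Tlr9 and 2.07 for Tlr13. At 5 d they were 3.23, −1.47, −2.40, 3.50, 4.47 and 3.52 for Tlr1, Tlr2, Tlr3, Tlr7, Tlr9 and Tlr13, and at 14 d 2.02, −2.28, −1.59, 2.89, 3.11 and 2.94 for the same genes. At 28 d they were −2.49 for Tlr2, −2.08 for Tlr3, 1.33 for Tlr7, 3.69 for Tlr9 and 1.45 for Tlr13. At 42 d they were −2.55 for Tlr2, −1.69 for Tlr3, −1.75 for Tlr6, 1.47 for Tlr7 and 1.65 for Tlr13, and at 70 d −2.30 for Tlr2, −1.92 for Tlr3 and −1.12 for Tlr4. Between the lines, the effect of injury in RiboTag libraries differed for Tlr2 (−1.51), Tlr4 (−1.84) and Tlr7 (−3.72), where 12.7% of all genes passed.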

How the results depend on the processing

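No member result that passed in the main or the alternative test changed direction, and changes of sign where neither passed were not counted. Of 7260 comparisons of a member test with an alternative, 7009 kept their side of the threshold, 108 newly passed and 143 no longer passed, 112 of these on leaving out 1 library. Leaving out each library in turn gave 70 to 73 member calls for RiboTag against Flow (72 of 108 with all libraries), 51 to 53 in the astrocyte time course (53 of 60), 15 to 17 in the steps between times (17 of 50), 46 to 49 in the Flow time course (49 of 60), 26 to 32 in the ratio change (31 of 60), 18 to 21 between lines in RiboTag (19 of 40), 9 to 12 in Flow (11 of 40), 2 to 4 over the ages (3 of 9) and 0 between the sexes. With the labelled sex as a covariate, the Flow line comparison had 7 member calls in place of 11. With the mouse as a replicate block, pairing the libraries of a mouse, RiboTag against Flow had 73 calls (3 lost, 4 gained) and the ratio change 34 (none lost, 3 gained), and the values of those calls stand in the text. With the edgeR 4 fit the ratio change kept 25 calls. Over all genes, the step from 28 to 42 d had 149 higher and 155 lower calls, and 341 and 389 with DESeq2 or 1 and 1 with the groups alone, and the step from 42 to 70 d had 936 and 1357, and 36 and 122 with the groups alone. The lines before injury differed in 988 higher and 1225 lower genes in RiboTag (452 and 277 with the labelled sex) and 1076 and 564 in Flow (69 and 10). DESeq2's size factors moved the all-gene median of the Flow time course by −0.11 to −0.14 at most times, with no member call changing sign. At least 10 counts per library moved the share of higher calls in mGfap RiboTag libraries after SCI from 62.8% to 49.2%. Depth limited Tlr1, Tlr6, Tlr7, Tlr8 and Tlr9 in uninjured RiboTag libraries, which held few counts or none.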
